A study of Mus musculus with 9 samples.

Results

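Macrophages and complement C1q are described here through 10 genes of 54838 in the deposited table: C1qa, C1qb, C1qc, Csf1r, Adgre1, Cd14, Mrc1, Cd163, Aif1 and Lyz2. They were chosen by name, as the genes for the chains of C1q and for commonly used macrophage markers, and all 10 were found. Expression was measured by sequencing total RNA from adult mouse ovaries taken 40 h after PMSG, which is a gonadotropin used to stimulate follicle growth. The 9 libraries form 3 groups of 3. WT is wild type, DKO carries the label DKO LXR, for double knockout of both liver X receptors (LXR), and DKO_TG is labelled as that same knockout with the transgene TG-AMH-LXRb. By their labels, the DKO and DKO_TG libraries therefore share the knockout of both receptors. The transgene is named for AMH, which is made by granulosa cells, and for LXRb. The labels state neither its promoter, nor the cells that express it, nor whether each library came from a separate animal, so each p-value reflects only the spread among these libraries, which may be technical.

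Macrophages are phagocytes that live in most tissues, and in the ovary they sit around follicles and in corpora lutea, where they take up dying cells. They depend on the CSF1 receptor for survival. C1q is the recognition protein of the classical complement pathway. It is built from A, B and C chains, binds antibody, dying cells and other surfaces, and carries the proteases C1r and C1s, which cleave C4 and C2 so that a C3 convertase forms. Unlike most complement proteins, which the liver supplies, C1q is made largely by macrophages and dendritic cells. Liver X receptors respond to oxysterols and, in macrophages, switch on genes for cholesterol export.

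The values are RPKM (reads per kilobase of transcript, scaled for library size), so levels can be compared between genes. The library size behind them was 0.793 to 0.920 of the recovered reads in WT and 1.03 to 1.11 in the other libraries, so levels in WT and in the knockout groups depend on that scaling. The libraries held 40.1 M to 59.4 M recovered reads. Both targeted genes were lower in both knockout groups than in WT. Of these, the gene for LXRb stayed at the 72.2 percentile of protein-coding genes by mean RPKM in DKO and the 69.5 percentile in DKO_TG. Nr1h3 (LXRa) was at 4.68 ± 0.701 RPKM in WT, with 0.807 ± 0.273 in DKO and 0.670 ± 0.145 in DKO_TG, and Nr1h2 (LXRb) at 18.8 ± 3.64, 6.53 ± 1.09 and 5.67 ± 0.458 (SD, n = 3 each). Neither differed by test between DKO_TG and DKO (limma adjusted p = 0.722 and 0.621). Nr1h2 was thus not higher in the libraries labelled with the LXRb transgene, and the labels do not say whether its transcript would be counted as Nr1h2. DKO_TG below stands for the libraries so labelled. RNAs retained in the nucleus separated WT from the remaining 6 libraries. Malat1 was at 1.67 to 11.1 RPKM in WT and at 177 to 279 RPKM in the other 6 libraries, and Neat1 at 0.226 to 0.757 and 41.2 to 67.2 RPKM. That separation lies between WT and both knockout groups, so it accompanies every comparison with WT below. Its part in those results was not tested.

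The 3 C1q genes lie side by side on the minus strand of mouse chromosome 4 (mm10, GENCODE M21). C1qb spans chr4:136880129-136886187, C1qc chr4:136889804-136893065 and C1qa chr4:136895917-136898803. Because they are neighbours whose levels moved together, the stretches upstream of C1qb and C1qc are shown, on the minus strand as the genes are read. The sequences are from the RefSeq promoter table (GRCm38.p6), in which 6 of the 10 genes had an entry. Capitals mark matches to GAGGAA, the core bound by PU.1, a factor of the macrophage lineage, and to AGGTCA, the core bound by many nuclear receptors, on either strand (TTCCTC and TGACCT are their reverse complements).
C1qb, chr4:136886201-136886450: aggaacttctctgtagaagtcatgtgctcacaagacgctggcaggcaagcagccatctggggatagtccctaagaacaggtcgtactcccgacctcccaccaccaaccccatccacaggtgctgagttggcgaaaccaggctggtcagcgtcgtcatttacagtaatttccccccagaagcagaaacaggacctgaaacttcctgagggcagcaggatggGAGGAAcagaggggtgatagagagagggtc
C1qc, chr4:136893066-136893164: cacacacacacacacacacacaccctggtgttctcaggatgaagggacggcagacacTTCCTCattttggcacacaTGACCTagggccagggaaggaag
In the 250 bases before each RefSeq start, C1qb held GAGGAA 1 time and AGGTCA 0 times, and C1qc held each of them 1 time. For C1qc that window is chr4:136892915-136893164, and the start of transcription in GENCODE M21, 136893065, lies inside it. Only the 99 bases upstream of that GENCODE start are shown for C1qc. GAGGAA occurred in 23.3% and AGGTCA in 14.02% of 32851 promoters of that length. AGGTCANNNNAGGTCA, the spaced repeat bound by LXR with its partner RXR, occurred in 5 of those promoters and in none of the 6 entries for the genes described here. Such matches describe letters in a window and do not show binding.

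All 10 genes were detected in every library, in an organ that consists mostly of follicles and stroma. C1qa, C1qb and Lyz2 were among the more abundant messages of the stimulated ovary. In WT they ranked at the 95.3, 95.3 and 96.9 percentile of protein-coding genes by mean RPKM, and C1qc at 89.5. The surface markers were lower, from the 79.8 percentile for Csf1r to the 60.7 percentile for Adgre1. Cd163, the haemoglobin scavenger receptor of some tissue macrophages, was the lowest, with a mean of 0.404 RPKM in WT. Ptprc, which encodes CD45 of all leukocytes, was also present in every library, at 0.268 to 4.56 RPKM. In a bulk sample, fewer cells of a type and less RNA per cell cannot be told apart.

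**Figure D1:**
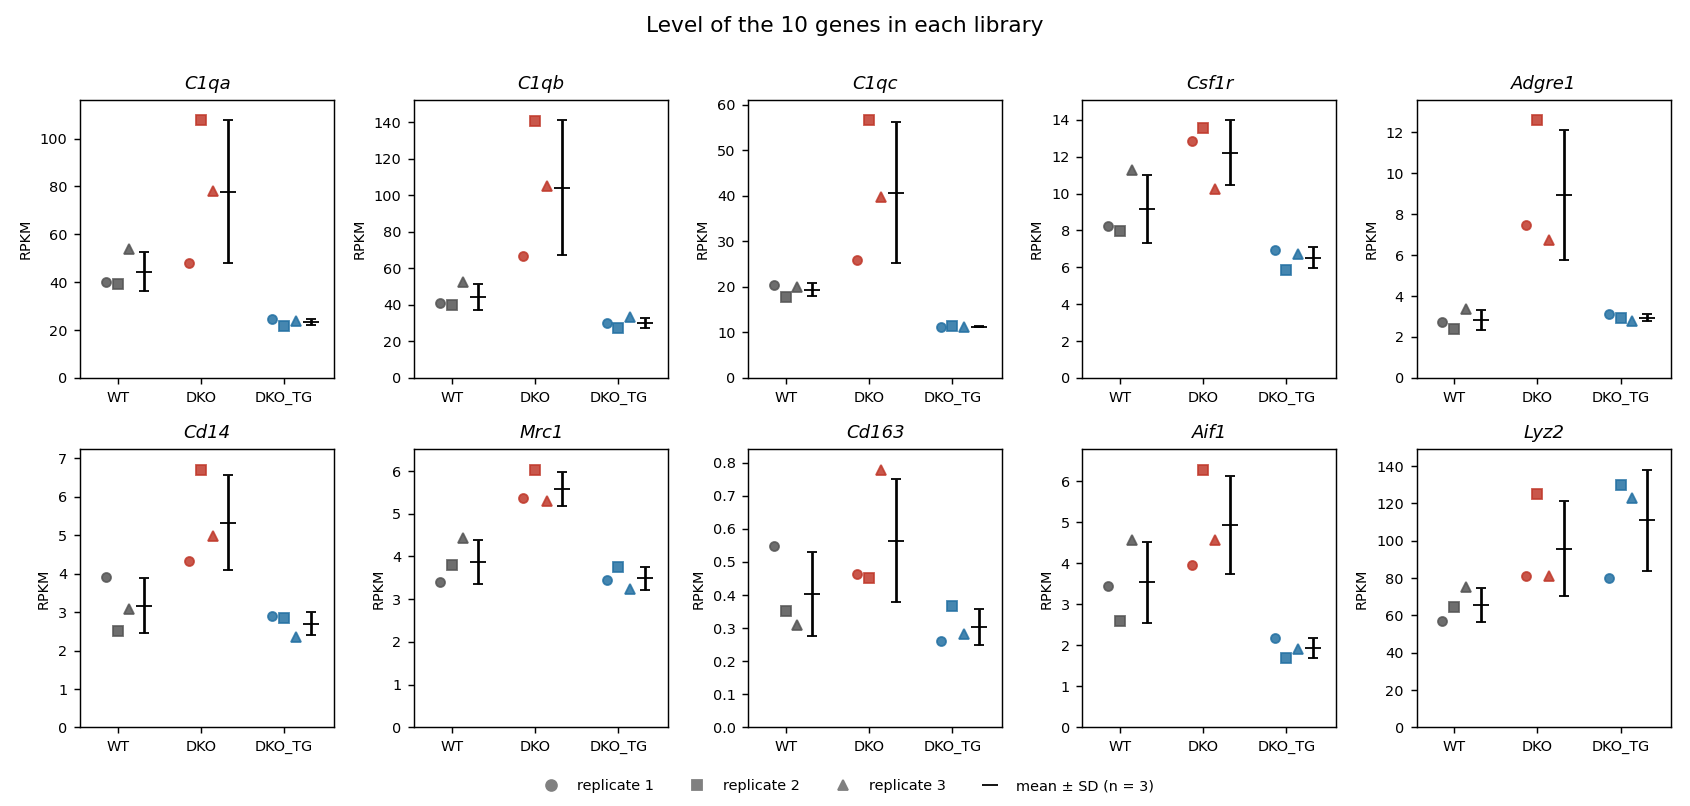
RPKM of the 10 genes in each of the 9 libraries; each point is 1 library and black marks are the group mean with SD (n = 3). The DKO group has the highest mean for 9 of the 10 genes, the DKO_TG libraries lie close together for the C1q genes, and Lyz2 alone has its highest mean in DKO_TG.

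The C1q chains had the largest decreases of the 10 genes from DKO to DKO_TG. C1qa, the A chain, was at 40.1, 39.1 and 53.7 RPKM in the WT libraries, 48.0, 108 and 77.9 in the DKO libraries and 24.6, 21.8 and 23.7 in the DKO_TG libraries. One DKO library lay within the WT range, while every DKO_TG library was below every other library. C1qb, the B chain, was at 40.7, 40.0 and 52.5 RPKM in WT, with 66.7, 140.5 and 105 in DKO and 29.95, 27.5 and 33.1 in DKO_TG. C1qc, the C chain, was at 20.4, 17.7 and 20.1 RPKM in WT, with 25.9, 56.6 and 39.8 in DKO and 11.1, 11.4 and 11.2 in DKO_TG. For these last genes the 3 groups did not overlap, and the order was DKO, WT, DKO_TG. Within DKO, replicate 2 was the highest and replicate 1 the lowest for all 3 chains.

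Against WT, C1qb was 2.25-fold higher in DKO on the log2(RPKM + 0.5) scale (log2 change 1.17 ± 0.24 SE, 95% interval 0.62 to 1.72, limma adjusted p = 0.00367), in a comparison where 30.8% of all 18889 genes tested were called higher. C1qc was 1.98-fold higher (0.98 ± 0.23, adjusted p = 0.00662). C1qa was 1.68-fold higher (0.75 ± 0.26, adjusted p = 0.0352), a call that was lost with the median of ratios (adjusted p = 0.0540) and without either WT replicate 1 or 2, DKO replicate 2 or 3, or DKO_TG replicate 1 or 3 (adjusted p = 0.0502 to 0.0989). From DKO to DKO_TG, which share the knockout, all 3 chains fell by similar amounts, where 1.73% of all genes tested were called lower. C1qc was 3.34-fold lower (log2 change -1.74 ± 0.23, 95% interval -2.27 to -1.22, limma adjusted p = 0.0143), C1qb 3.27-fold lower (-1.71 ± 0.24, adjusted p = 0.0164) and C1qa 3.12-fold lower (-1.64 ± 0.26, adjusted p = 0.0208).

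The DKO_TG level was also below WT for 2 chains by the test, where 22.3% of all genes tested were called lower. C1qa was 1.86-fold lower than in WT (log2 change -0.90 ± 0.26, limma adjusted p = 0.0184) and C1qc 1.69-fold lower (-0.76 ± 0.23, adjusted p = 0.0231). C1qb was at a log2 change of -0.54 with a 95% interval of -1.09 to 0.01 (adjusted p = 0.0909). These differences depended on how libraries were scaled. With TPM (each library rescaled to the same sum) the log2 changes were -0.38 for C1qa, -0.02 for C1qb and -0.25 for C1qc, and none passed (adjusted p = 0.175, 0.944 and 0.2495). Rescaling to the plain total of reads also ended both calls (adjusted p = 0.0607 for C1qa and 0.0755 for C1qc). The C1qa call was lost without WT replicate 3 or DKO_TG replicate 2 (adjusted p = 0.0633 and 0.0555), and the C1qc call without WT replicate 1 or 3 or any 1 DKO_TG library (adjusted p = 0.0540 to 0.0659).

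Ratios within a library do not depend on scaling. C1qb per C1qa was 1.02, 1.02 and 0.976 in WT, with 1.39, 1.31 and 1.35 in DKO and 1.22, 1.26 and 1.39 in DKO_TG. The B chain was therefore equal to the A chain in WT and higher in all 6 knockout libraries, with no overlap with WT (exact permutation test, two-sided p = 0.1 for each group against WT, the smallest that 3 against 3 allow). DKO and DKO_TG overlapped (exact p = 0.5). C1qc per C1qa was 0.507, 0.454 and 0.374 in WT, with 0.538, 0.526 and 0.510 in DKO and 0.452, 0.524 and 0.472 in DKO_TG, higher in every DKO library than in WT (exact p = 0.1, 0.2 and 0.5 for DKO against WT, DKO_TG against DKO and DKO_TG against WT). The summed RPKM of the 3 chains was 96.8 to 126 in WT, with 141 to 305 in DKO and 60.8 to 68.0 in DKO_TG.

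The receptor genes come next. Csf1r encodes the receptor for CSF1 and IL-34. It was at 8.22, 7.96 and 11.3 RPKM in WT, with 12.8, 13.6 and 10.2 in DKO and 6.95, 5.87 and 6.70 in DKO_TG. The lowest DKO library lay inside the WT range, and the DKO_TG libraries were below all others. Csf1r was 1.32-fold higher in DKO than in WT (log2 change 0.40 ± 0.15, limma adjusted p = 0.0481), a call lost without any 1 library except WT replicate 3 or DKO replicate 3 (adjusted p = 0.0589 to 0.146). It was 1.81-fold lower in DKO_TG than in DKO (-0.85 ± 0.15, adjusted p = 0.0311) and 1.37-fold lower than in WT (-0.45 ± 0.15, adjusted p = 0.0356), the latter turning to 0.05 with TPM. The WT call was also lost without WT replicate 3 or any 1 DKO_TG library (adjusted p = 0.0585 to 0.112). Csf1r shares 873 exon bases with Hmgxb3 on the opposite strand, and whether counting used strand is not given in the sources used here.

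Adgre1 encodes F4/80, an adhesion receptor used to mark mouse macrophages (chr17:57358691-57483527). Its RPKM was 2.72, 2.40 and 3.35 in WT, with 7.49, 12.6 and 6.71 in DKO and 3.11, 2.90 and 2.80 in DKO_TG. Every DKO library was above every other library, and WT and DKO_TG overlapped. Adgre1 had the largest change against WT among the 10 genes, 2.76-fold (log2 change 1.46 ± 0.21, 95% interval 0.99 to 1.94, limma adjusted p = 0.000537). It was 2.65-fold lower in DKO_TG than in DKO (-1.40 ± 0.21, adjusted p = 0.0176). Between DKO_TG and WT the log2 change was 0.06 with a 95% interval of -0.42 to 0.53 (adjusted p = 0.835).

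Adgre1 rose more than Csf1r. Adgre1 per Csf1r was 0.331, 0.302 and 0.297 in WT, with 0.583, 0.927 and 0.655 in DKO and 0.448, 0.495 and 0.418 in DKO_TG. The 3 groups did not overlap in this ratio, and DKO_TG lay between WT and DKO (exact permutation test, two-sided p = 0.1 for each pair). The summed C1q per Csf1r was 12.3, 12.2 and 11.2 in WT, with 11.0, 22.4 and 21.7 in DKO and 9.44, 10.4 and 10.2 in DKO_TG. DKO replicate 1 thus lay just below every WT library in this ratio, and the other DKO libraries lay above them (exact p = 0.4 for DKO against WT and 0.1 for DKO_TG against either).

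**Figure D2:**
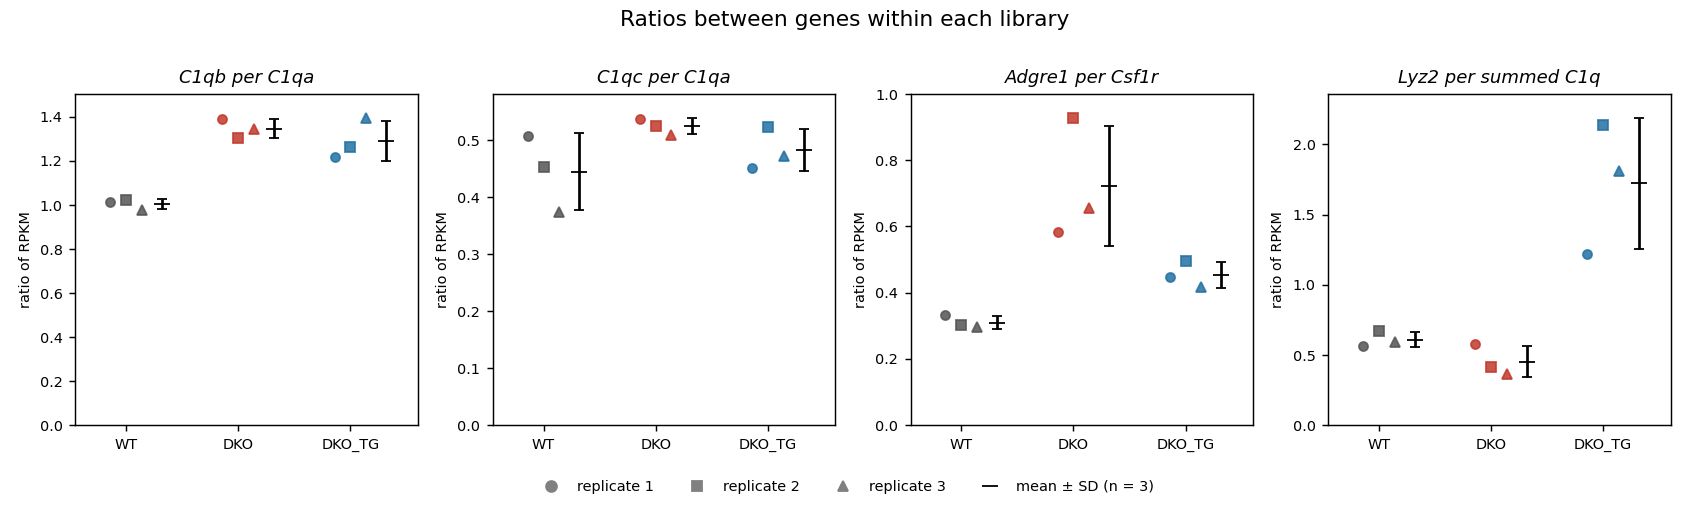
Ratios of RPKM within each library, 1 point a library; black marks are the mean with SD (n = 3). C1qb per C1qa is near 1 in WT and between 1.22 and 1.39 in the other 6 libraries, Adgre1 per Csf1r separates all 3 groups, and Lyz2 per summed C1q is highest in DKO_TG.

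Cd14 encodes a co-receptor for bacterial lipopolysaccharide and is also expressed by monocytes and neutrophils. It was at 3.92, 2.50 and 3.09 RPKM in WT, with 4.33, 6.70 and 4.97 in DKO and 2.89, 2.85 and 2.36 in DKO_TG, so that DKO was above both other groups, which overlapped. Cd14 was 1.59-fold higher in DKO than in WT (log2 change 0.67 ± 0.18, limma adjusted p = 0.0127; 0.0713 with quantile normalization). In DKO_TG against DKO the log2 change was -0.85 (95% interval -1.26 to -0.44), and the adjusted p of 0.0507 missed the threshold. Against WT it was -0.18 (-0.59 to 0.23, adjusted p = 0.422), and 0.29 with TPM.

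Mrc1 encodes the mannose receptor CD206 (chr2:14229392-14332057). It was at 3.39, 3.79 and 4.43 RPKM in WT, with 5.38, 6.03 and 5.31 in DKO and 3.45, 3.76 and 3.24 in DKO_TG. The DKO libraries were close together and above the others. Mrc1 was 1.39-fold higher in DKO than in WT (log2 change 0.48 ± 0.11, limma adjusted p = 0.00528) and 1.52-fold lower in DKO_TG than in DKO (-0.61 ± 0.11, adjusted p = 0.0300). Between DKO_TG and WT it was at -0.13 (95% interval -0.37 to 0.12, adjusted p = 0.345), and at 0.35 with TPM.

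Cd163 (chr6:124304656-124330527) was at 0.548, 0.352 and 0.311 RPKM in WT, with 0.465, 0.450 and 0.778 in DKO and 0.263, 0.366 and 0.283 in DKO_TG. It was the only one of the 10 genes that did not reach 0.5 RPKM in 3 libraries, so it was not tested. Without that filter its log2 changes were 0.23 in DKO against WT, -0.39 in DKO_TG against DKO and -0.16 in DKO_TG against WT, none of which passed (limma adjusted p = 0.296, 0.330 and 0.482).

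Aif1 encodes IBA1, a calcium-binding protein of the macrophage cytoskeleton (chr17:35170991-35176068). It was at 3.45, 2.60 and 4.55 RPKM in WT, with 3.97, 6.27 and 4.57 in DKO and 2.18, 1.70 and 1.91 in DKO_TG. WT and DKO overlapped, and DKO_TG was below both. The log2 change in DKO against WT was 0.44 (95% interval -0.02 to 0.90, limma adjusted p = 0.0934). Aif1 was 2.21-fold lower in DKO_TG than in DKO (-1.14 ± 0.20, adjusted p = 0.0303) and 1.63-fold lower than in WT (-0.71 ± 0.20, adjusted p = 0.0178). The WT call was lost with TPM or the plain total of reads (adjusted p = 0.264 and 0.0666) and without WT replicate 3 or DKO_TG replicate 2 (adjusted p = 0.0571 and 0.0594).

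Lyz2 departed from the other genes. It encodes lysozyme M, an enzyme that cuts bacterial cell walls and is made by macrophages, monocytes and neutrophils (chr10:117277331-117282321). Its RPKM was 57.2, 64.8 and 75.0 in WT, with 81.0, 125 and 81.3 in DKO and 80.1, 129.8 and 123 in DKO_TG. Both knockout groups were above WT and overlapped each other. Lyz2 was 1.66-fold higher in DKO_TG than in WT (log2 change 0.73 ± 0.23, limma adjusted p = 0.0266), a call lost without WT replicate 1 or 2 or DKO_TG replicate 2 or 3 (adjusted p = 0.0626 to 0.0909). In DKO against WT it was at 0.52 (95% interval -0.00 to 1.04, adjusted p = 0.0815), and in DKO_TG against DKO at 0.21 (-0.31 to 0.73, adjusted p = 0.708).

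Lyz2 per summed C1q was 0.565, 0.669 and 0.594 in WT, with 0.576, 0.411 and 0.365 in DKO and 1.22, 2.14 and 1.81 in DKO_TG. In DKO_TG the lysozyme message thus exceeded the 3 C1q messages together, and in the other 6 libraries it did not (exact permutation test, two-sided p = 0.1 for DKO_TG against either group and 0.2 for DKO against WT). Lyz1, the neighbouring and closely related lysozyme gene (chr10:117287797-117292868), was at 6.98, 7.45 and 11.0 RPKM in WT, with 11.8, 15.8 and 9.62 in DKO and 12.5, 18.7 and 17.4 in DKO_TG. It was higher in DKO_TG than in WT (log2 change 0.90 ± 0.23, limma adjusted p = 0.0110). Lyz1 per Lyz2 was between 0.115 and 0.156 in all 9 libraries, and reads of these paralogues may have been split between them.

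Of the 9 genes tested, limma called 7 higher and 0 lower in DKO against WT (all but Lyz2 and Aif1; 7 also at an unadjusted p under 0.05, and 5 higher and 0 lower by limma-voom). Limma-voom gave no value for Cd14 and Csf1r, so its counts here do not cover them. Among all 18889 genes tested, 30.8% were called higher and 25.9% lower. The median log2 change of the 9 genes was 0.67, against 0.02 over all genes. In DKO_TG against DKO, 0 were higher and 7 lower by limma (8 at an unadjusted p under 0.05, and 6 lower by limma-voom), where 0.498% of all genes were called higher and 1.73% lower. The median log2 change was -1.14, against 0.03 over all genes. In DKO_TG against WT, 1 was higher (Lyz2) and 4 lower (C1qa, C1qc, Csf1r and Aif1), where 29.1% and 22.3% of all genes were called.

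The 3 comparisons share libraries with each other, so their counts are not independent. The count of 7 in DKO_TG against DKO fell to 0 without DKO_TG replicate 1, 2 or 3, to 3 without DKO replicate 3 and to 4 without DKO replicate 2, while 8 of the 9 genes stayed at an unadjusted p under 0.05 in each of these fits. Without 1 DKO_TG library the adjusted p of the 7 genes was 0.0622 to 0.139. The calls for C1qa, C1qb, Mrc1 and Aif1 were also lost without DKO replicate 3 (0.0536 to 0.0725), those for Csf1r, Mrc1 and Aif1 without DKO replicate 2 (0.0702 to 0.0832), that for Csf1r without DKO replicate 1 (0.0643) and that for Mrc1 without WT replicate 2 (0.0584). Without a DKO_TG library, limma called only 8 to 9 genes higher and 23 to 24 lower in the whole table. The count of 5 in DKO_TG against WT fell to 3 without WT replicate 1 or DKO_TG replicate 1, to 2 without DKO_TG replicate 3, to 1 without WT replicate 3 and to 0 without DKO_TG replicate 2 (4 at an unadjusted p under 0.05). With TPM, the shares of all genes called were 53.2% higher and 5.62% lower for DKO against WT, and 51.8% and 5.25% for DKO_TG against WT. With the plain total of reads these shares were 43.6% and 12.3%, and 39.6% and 11.8%.

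**Figure D3:**
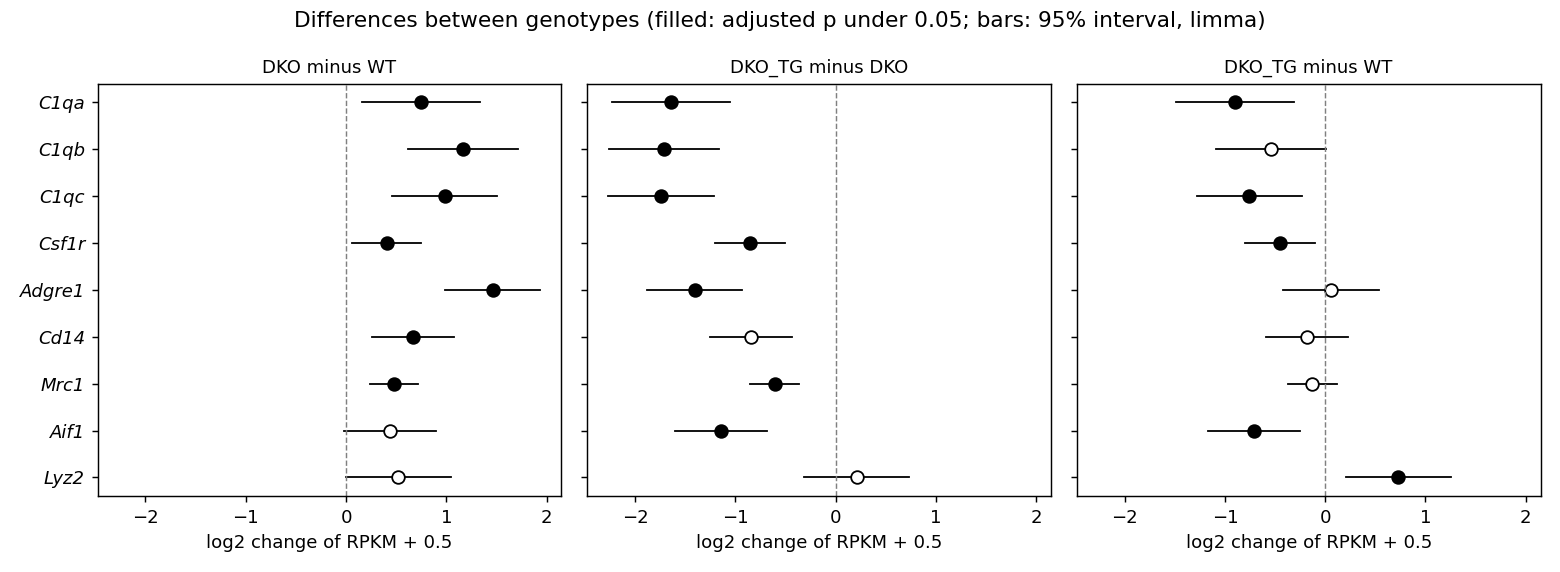
Log2 change with its 95% interval for the 9 tested genes in the 3 comparisons, from limma on log2(RPKM + 0.5); filled points have an adjusted p under 0.05. The points for DKO against WT lie to the right of 0, and those for DKO_TG against DKO to the left except for Lyz2.

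Other genes of the macrophage lineage, listed beside the 10, moved less uniformly. Of 26 listed genes, 22 were tested; in DKO against WT 9 were higher and 0 lower (12 at an unadjusted p under 0.05), and the median log2 change was 0.42. Over all genes tested 30.8% were higher and 25.9% lower, with a median of 0.02. Itgam, an integrin chain of myeloid cells, was at 0.143, 0.156 and 0.173 RPKM in WT and 0.856, 2.45 and 1.77 in DKO. Its log2 change was 1.67 (limma adjusted p = 0.0006). Itgam reached 0.5 RPKM only in the DKO libraries, so it could be tested, and counted, only because it was high there. Its exons also overlap those of another gene on the same strand. Spi1, which encodes PU.1, was at 1.43, 1.28 and 1.33 RPKM in WT, with 2.44, 4.98 and 3.97 in DKO and 1.25, 1.17 and 1.28 in DKO_TG. It was higher in DKO than in WT (1.17, adjusted p = 0.00122) and lower in DKO_TG than in DKO (-1.26, adjusted p = 0.0199). The 9 higher genes became 17 with TPM and 16 with the plain total of reads.

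In DKO_TG against DKO 5 of the 22 were lower and 0 higher (12 at an unadjusted p under 0.05): Cx3cr1, Spi1, Laptm5, Itgam and Fcgr1. Over all genes 1.73% were lower. The count was 0 without any 1 DKO_TG library or DKO replicate 3. Itgam had passed the filter only through the DKO libraries, where it was high. Cx3cr1, the fractalkine receptor, was at 4.51, 3.74 and 5.47 RPKM in WT, with 4.23, 5.40 and 4.99 in DKO and 2.40, 2.13 and 2.26 in DKO_TG. WT and DKO overlapped, and DKO_TG was below both (log2 change -0.95 against DKO, limma adjusted p = 0.0170, and -0.86 against WT, adjusted p = 0.000997). Laptm5, a lysosomal membrane protein of blood-derived cells, had the same order of groups, with means of 11.9, 16.1 and 5.85 RPKM (-0.96 against WT, adjusted p = 0.00946).

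In DKO_TG against WT, 5 of the 22 were lower and 2 higher, Mertk and Gpnmb, where 22.3% of all genes were lower and 29.1% higher. Mertk encodes a receptor for the uptake of dying cells. It was at 1.65, 1.74 and 1.94 RPKM in WT, with 4.41, 3.15 and 5.97 in DKO and 3.91, 3.24 and 3.28 in DKO_TG, so the knockout groups overlapped each other and lay above WT (log2 change 0.80 in DKO_TG against WT, limma adjusted p = 0.00678). Gpnmb, a glycoprotein of lipid-laden phagocytes, was at 1.78, 0.851 and 1.80 RPKM in WT, with 0.801, 2.22 and 1.17 in DKO and 2.59, 14.2 and 6.80 in DKO_TG. DKO_TG was above both groups, with a wide spread (1.85 against WT, adjusted p = 0.0165, and 0.0562 without WT replicate 2). Lyz2 and Gpnmb were both highest in DKO_TG replicate 2 and lowest of that group in replicate 1.

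Of the ligands of Csf1r and the related growth factor receptors, 5 of 6 were tested. In DKO against WT 4 were higher and 0 lower, where 30.8% of all genes were higher. Csf1, the ligand for Csf1r, was at 3.40, 2.87 and 3.29 RPKM in WT, with 4.81, 4.75 and 6.26 in DKO and 4.16, 3.97 and 4.01 in DKO_TG. It was higher in DKO than in WT (log2 change 0.64, limma adjusted p = 0.00167), and in DKO_TG it lay between the other groups (-0.34 against DKO, adjusted p = 0.196; 0.31 against WT, adjusted p = 0.0493). The last call was lost without any 1 library except DKO replicate 2 or 3 (adjusted p = 0.0503 to 0.149). Il34, the other ligand, passed in no comparison (0.37, -0.55 and -0.18, adjusted p = 0.224, 0.323 and 0.560), and antisense genes overlap it.

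Csf2rb, the shared chain of the GM-CSF receptor, was higher in DKO than in WT (log2 change 1.37, limma adjusted p = 2.79e-05). It was also higher in DKO_TG than in WT (0.90, adjusted p = 0.000304), as was Csf2ra (0.91, adjusted p = 0.00773). In DKO_TG against WT, 29.1% of all genes were higher. Csf3r, the G-CSF receptor of neutrophils, was at 0.321, 0.173 and 0.315 RPKM in WT, with 1.54, 3.08 and 1.90 in DKO and 0.738, 0.548 and 0.679 in DKO_TG. It was the only gene of this list called in DKO_TG against DKO (-1.17, adjusted p = 0.0272). That call was lost without DKO replicate 3 or any 1 DKO_TG library (adjusted p up to 0.113). Csf3r was also higher in DKO_TG than in WT (0.59, limma adjusted p = 0.0365). It passed the filter of 0.5 RPKM only through DKO and DKO_TG, where it was high.

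The partners of C1q in the classical pathway were measured in full, 8 of 8 listed genes. In DKO_TG against DKO 7 were lower and 0 higher (8 at an unadjusted p under 0.05), and the median log2 change was -0.76, where 1.73% of all genes were lower and the median was 0.03. In DKO against WT 4 were higher and 0 lower (30.8% and 25.9% of all genes), and in DKO_TG against WT 3 were lower and 0 higher (22.3% and 29.1% of all genes). The count of 7 fell to 0 without any 1 DKO_TG library, to 4 without DKO replicate 2 and to 3 without DKO replicate 3.

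C1ra, a protease carried by C1q, was at 28.9, 28.2 and 33.9 RPKM in WT, with 31.5, 39.2 and 34.0 in DKO and 22.2, 20.8 and 21.8 in DKO_TG. It did not pass in DKO against WT (log2 change 0.20, limma adjusted p = 0.146), and it was lower in DKO_TG than in DKO (-0.67, adjusted p = 0.0209) and in WT (-0.48, adjusted p = 0.00606; 0.04 with TPM). Its near-identical copy C1rb had the same calls (-0.74 and -0.56 in DKO_TG against DKO and WT). C1s1, the protease that C1r activates, was at 43.6, 38.7 and 51.2 RPKM in WT, with 72.8, 69.5 and 66.9 in DKO and 45.4, 48.0 and 43.9 in DKO_TG. It was higher in DKO than in WT (0.65, adjusted p = 0.00136) and lower in DKO_TG than in DKO (-0.60, adjusted p = 0.0343), and overlapped in WT and DKO_TG (0.05, adjusted p = 0.735). Reads of C1ra and C1rb, of C1s1 and C1s2, and of C4a and C4b may have been split between the copies.

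C4b, the source of C4, was at 5.15, 3.52 and 4.25 RPKM in WT, with 9.44, 17.8 and 24.2 in DKO and 3.52, 3.13 and 2.35 in DKO_TG. It was higher in DKO than in WT (log2 change 1.79, limma adjusted p = 0.00128) and lower in DKO_TG than in DKO (-2.25, adjusted p = 0.0143), the largest change of the list. C3, the central complement protein, was at 14.9, 10.5 and 15.6 RPKM in WT, with 9.90, 23.7 and 32.5 in DKO and 2.89, 6.76 and 3.15 in DKO_TG. DKO replicate 1 was below every WT library, and the DKO_TG libraries were below all others (0.53 in DKO against WT, adjusted p = 0.310; -2.18 in DKO_TG against DKO, adjusted p = 0.0434; -1.64 in DKO_TG against WT, adjusted p = 0.0120). The C3 call against DKO was lost without any 1 library except DKO replicate 1 (adjusted p = 0.0594 to 0.165). Unlike C1q, both C4b and C3 were highest in DKO replicate 3, not replicate 2.

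**Figure D4:**
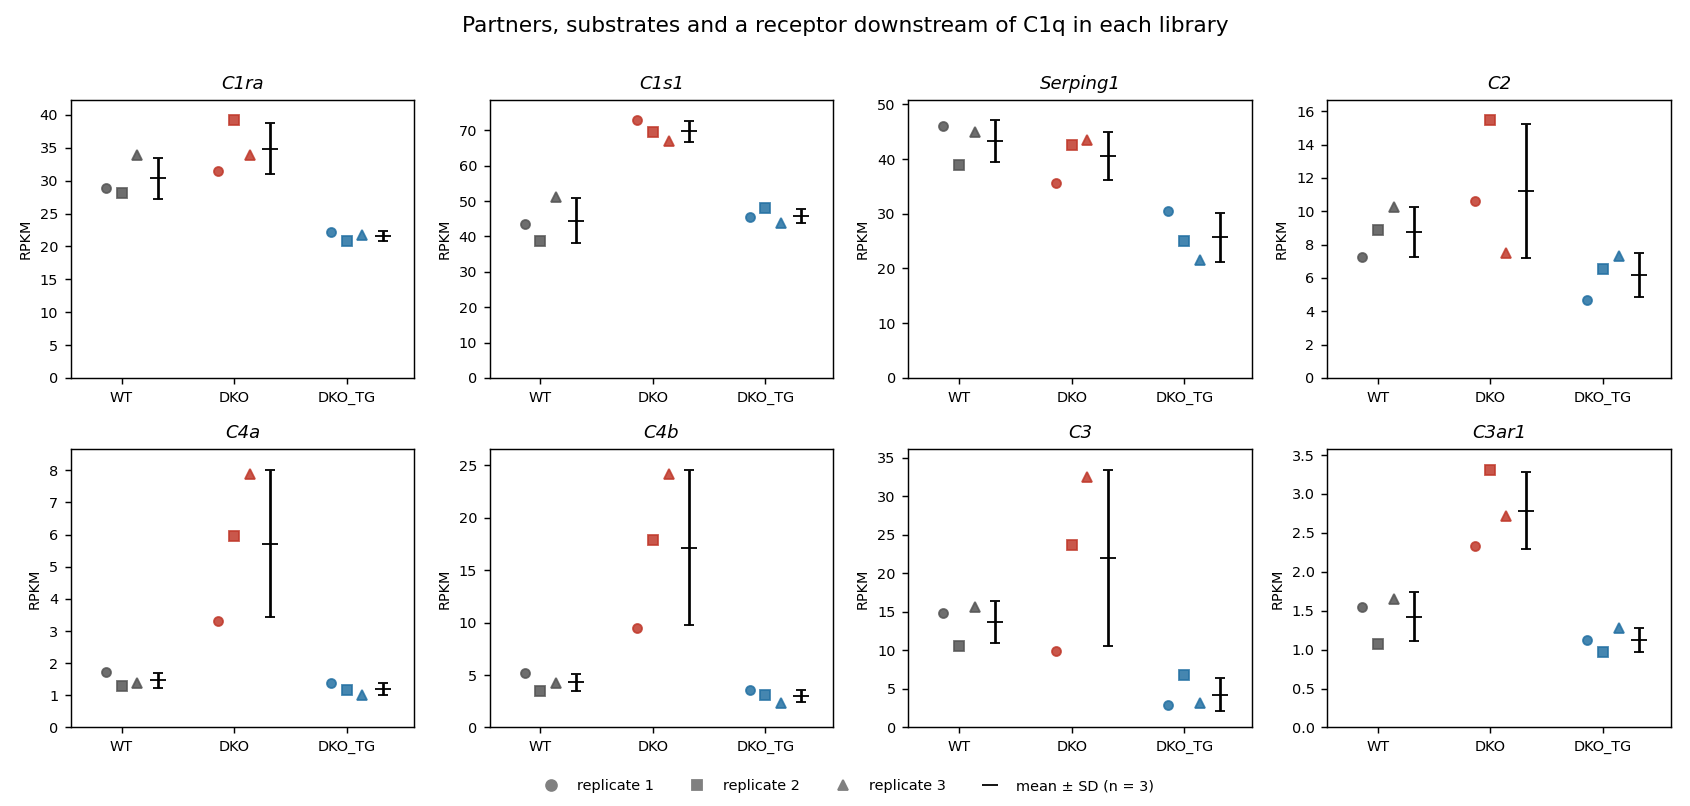
RPKM of C1ra, C1s1, Serping1, C2, C4a, C4b, C3 and C3ar1 in each library, 1 point a library, with the group mean and SD (n = 3) in black. C4a, C4b and C3 are widely spread in DKO, and the DKO_TG libraries are below all DKO libraries for each of the 8 genes.

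Regulators and the other branches of complement were mixed. Serping1, the inhibitor of C1r and C1s, was at 46.0, 39.0 and 44.9 RPKM in WT, with 35.6, 42.6 and 43.5 in DKO and 30.5, 25.1 and 21.6 in DKO_TG. It did not pass in DKO against WT (log2 change -0.10, limma adjusted p = 0.583; 0.45 with TPM), missed the threshold in DKO_TG against DKO (-0.65, adjusted p = 0.0539) and fell between WT and DKO_TG (-0.75, adjusted p = 0.00246). Of 10 regulators tested, 1 was higher and 3 lower in DKO against WT, 0 passed in DKO_TG against DKO (3 at an unadjusted p under 0.05), and 1 was higher and 4 lower in DKO_TG against WT. The shares of all genes were 30.8% higher and 25.9% lower in DKO against WT, 0.498% and 1.73% in DKO_TG against DKO, and 29.1% and 22.3% in DKO_TG against WT. The regulator called higher in both comparisons with WT was Cd46, at 0.0230 to 0.0490 RPKM in WT and 0.696 to 1.14 elsewhere. It reached 0.5 RPKM only in the knockout groups, so it could be tested only because it was high there. Clu, which encodes clusterin, fell from 168.7 ± 11.3 RPKM in WT to 106.8 ± 19.9 in DKO (-0.67, adjusted p = 0.00545), a call lost with TPM, quantile normalization and the plain total of reads (adjusted p up to 0.914).

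In the alternative, lectin and terminal pathways, 7 of 14 genes in the table were tested. In DKO against WT 3 were higher and 0 lower (30.8% and 25.9% of all genes), and in DKO_TG against WT 5 were higher and 0 lower (29.1% and 22.3% of all genes). By limma 0 passed in DKO_TG against DKO (1 at an unadjusted p under 0.05). Cfp, which encodes properdin and is made by myeloid cells, was at 3.999, 4.83 and 5.12 RPKM in WT, with 12.7, 15.1 and 9.46 in DKO and 7.12, 7.44 and 7.20 in DKO_TG. The groups did not overlap, and DKO_TG remained above WT (log2 change 1.31 in DKO against WT, limma adjusted p = 0.00021).

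Among 10 complement and C1q receptors tested, 2 were higher and 4 lower in DKO against WT (30.8% and 25.9% of all genes). One was lower in DKO_TG against DKO (1.73% of all genes), and in DKO_TG against WT 1 was higher and 3 lower (29.1% and 22.3%). C3ar1, the receptor for C3a, was at 1.55, 1.07 and 1.65 RPKM in WT, with 2.33, 3.31 and 2.72 in DKO and 1.13, 0.974 and 1.27 in DKO_TG. It was higher in DKO than in WT (log2 change 0.77, limma adjusted p = 0.00326) and lower in DKO_TG than in DKO (-1.01, adjusted p = 0.0199). The latter call was lost without DKO replicate 2 or 3 or any 1 DKO_TG library (adjusted p = 0.0512 to 0.0901). Calr, which encodes calreticulin, a chaperone that also binds C1q at the cell surface, fell from 570.3 ± 35.4 RPKM in WT to 274.9 ± 37.5 in DKO (-1.06, adjusted p = 0.000299).

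Of 7 partners of Cd14 in lipopolysaccharide recognition that were tested, 2 were higher and 0 lower in DKO against WT, where 30.8% of all genes were higher. The same 2, Tlr2 and Lbp, were lower in DKO_TG against DKO, where 1.73% of all genes were. Tlr2, a receptor for bacterial lipoproteins, had log2 changes of 0.90 and -0.68 (limma adjusted p = 0.000451 and 0.0333). Lbp, the lipopolysaccharide-binding protein, had 0.52 and -0.75 (adjusted p = 0.00628 and 0.0209). Both of the latter calls were lost without DKO replicate 2 or 3 or any 1 DKO_TG library (adjusted p up to 0.137), and that for Tlr2 also without WT replicate 2 or 3 (0.0654 and 0.0561). Tlr4, the receptor itself, passed in neither (0.29 and -0.34, adjusted p = 0.137 and 0.336), nor did its co-receptor Ly96 (0.11 and -0.06, adjusted p = 0.574 and 0.888).

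Markers of other blood cells also differed between the libraries. The summed RPKM of 8 neutrophil markers was 1.88 to 2.53 in WT, with 7.42, 21.1 and 100.2 in DKO and 2.33 to 2.93 in DKO_TG. Of the 5 tested, 4 were higher in DKO than in WT (30.8% of all genes), and by limma 0 passed in DKO_TG against DKO (5 at an unadjusted p under 0.05). The red blood cell markers summed to 360.5 to 1657 RPKM in WT, with 562.2, 2411 and 1675 in DKO and 197.7 to 284.8 in DKO_TG. Monocyte markers summed to 33.5 to 39.6, 43.4 to 84.7 and 35.9 to 45.5 RPKM, and lymphocyte markers to 2.63 to 3.66, 4.52 to 7.72 and 2.61 to 3.60. The monocyte markers differed in direction in DKO against WT, where 30.8% of all genes were higher and 25.9% lower. Ccr2 and Plac8 were higher (log2 change 1.72 and 0.89, limma adjusted p = 1.6e-05 and 0.0124). Ly6c2 was lower (-0.63, adjusted p = 0.0102), and Vcan was not called. Dendritic cells are another source of C1q, and their markers summed to 4.43 to 5.18, 5.28 to 7.03 and 5.82 to 6.70 RPKM. Among them, Zbtb46 and Clec9a were higher in DKO than in WT (0.38 and 0.55, limma adjusted p = 0.00842 and 0.0210). Siglech was lower (-0.52, adjusted p = 0.0332). No marker in these lists was at 0 in all 9 libraries. DKO replicate 2, the highest library for C1q and Adgre1, was also the highest for red blood cell markers, and DKO replicate 3 was the highest for neutrophil markers. The part of blood content in the C1q and macrophage results was not tested.

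Ptprc was at 0.268, 0.280 and 0.352 RPKM in WT, with 1.97, 4.56 and 3.48 in DKO and 0.961, 0.813 and 0.906 in DKO_TG. It passed the filter of 0.5 RPKM only through DKO and DKO_TG, where it was high. The 3 groups did not overlap, and DKO_TG was above WT, where C1q was below it (log2 change 2.20 in DKO against WT, limma adjusted p = 8.74e-05; -1.40 in DKO_TG against DKO, adjusted p = 0.0210; 0.80 in DKO_TG against WT, adjusted p = 0.0162). The 0.0210 became 0.0678 without DKO replicate 3 and up to 0.101 without 1 DKO_TG library, and the 0.0162 became 0.0511 without DKO_TG replicate 1 and 0.361 with quantile normalization. Granulosa cell markers, the largest follicular population, summed to 1676 to 2302, 1039 to 2059 and 1539 to 1868 RPKM, and these sums overlapped in all groups. By gene, Foxl2 was lower than in WT in DKO (log2 change -0.51, limma adjusted p = 0.00538) and in DKO_TG (-0.59, adjusted p = 0.00288). Amh was lower in DKO_TG than in WT (-0.73, adjusted p = 0.0464), where 22.3% of all genes were lower. No other granulosa marker was called in any comparison. Theca and steroidogenic markers summed to 7722 to 11198 RPKM in WT and 7659 to 8431 in DKO_TG. Their sum was lower in every DKO library, at 5594 to 6996, but its genes did not move together. In DKO against WT, Star and Cyp11a1 were lower (log2 change -1.52 and -1.13, limma adjusted p = 0.00872 and 0.00659). Insl3 was higher (1.38, adjusted p = 0.000745), and Cyp17a1, Hsd3b1 and Lhcgr were not called. Over all genes 30.8% were higher and 25.9% lower. Oocyte markers summed to 13.1 to 30.4, 28.4 to 67.3 and 42.4 to 61.0 RPKM, and mast cell markers to 1.51 to 11.4, 4.18 to 19.8 and 0.580 to 4.13. Of the oocyte genes, Zp1, Zp2, Zp3 and Gdf9 were higher in DKO than in WT (log2 change 0.98 to 1.34, limma adjusted p = 0.0134 to 0.0454). Bmp15 and Oosp1 were not called in DKO against WT. The part of these cell types in the macrophage results was not tested. Endothelial markers summed to 80.9 to 88.0 in WT, above the 48.6 to 73.1 in DKO and 59.1 to 71.1 in DKO_TG. Of these genes, Pecam1, Kdr, Tek and Emcn were called lower in DKO than in WT, and Cdh5 was not called. Vwf went the other way (log2 change 0.80, limma adjusted p = 0.00177).

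**Figure D5:**
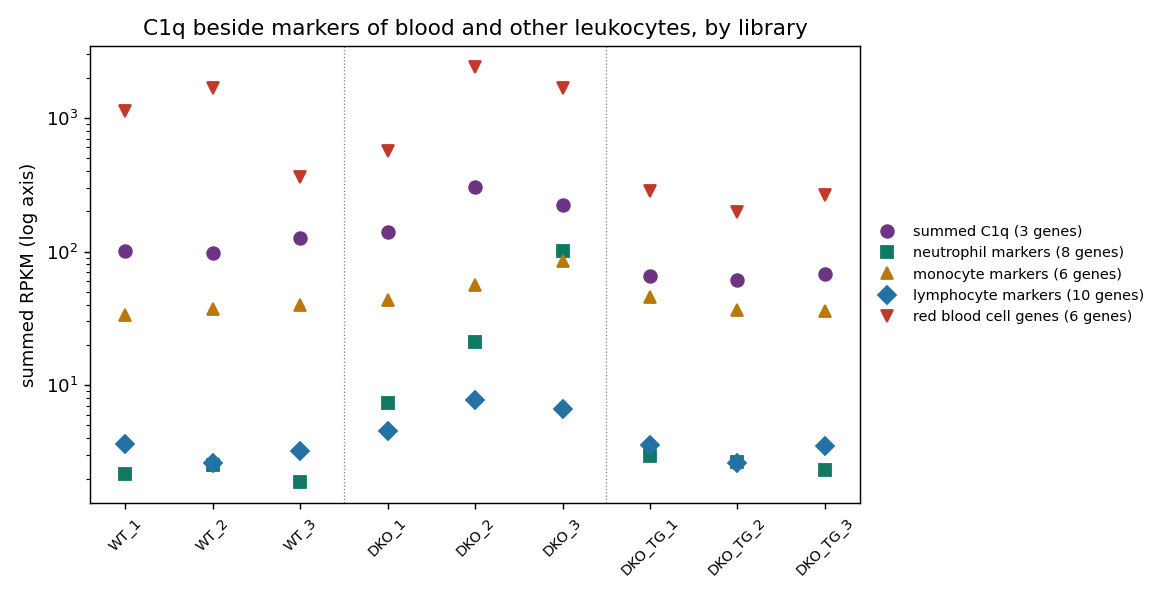
Summed RPKM (log axis) of the 3 C1q genes and of marker lists for neutrophils, monocytes, lymphocytes and red blood cells, for each library on the x axis. Neutrophil markers are highest in the DKO libraries, and red blood cell markers are lowest in the DKO_TG libraries.

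The genes whose levels most resembled C1q were sought among 11838 protein-coding genes with a mean of at least 1 RPKM, by Pearson r over the 9 libraries with the mean log2 level of the 3 chains. The closest were Rac2 (r = 0.992), a small GTPase of blood cells, Fcer1g (0.979), the signalling chain of Fc receptors, Pla2g7 (0.976), a phospholipase of macrophages, Inpp5d (0.975), a phosphatase of blood cells, and Gpr37 (0.973), a G protein-coupled receptor. Rac2 had means of 2.66, 6.24 and 1.66 RPKM in WT, DKO and DKO_TG, and Fcer1g 13.3, 36.7 and 8.56. Of the other tested genes of the 10, Aif1 had r = 0.944, Cd14 0.905, Mrc1 0.900, Csf1r 0.880, Adgre1 0.867 and Lyz2 -0.01.

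With each group's mean removed, so that only the spread between libraries of a group counts, the closest genes were Hnrnpf (0.990), Arf2 (0.989), Fcgr1 (0.985), Lrrc25 (0.983) and Fcer1g (0.978). Fcgr1 is the high-affinity receptor for IgG. Aif1 then had r = 0.793, Adgre1 0.728, Cd14 0.641, Lyz2 0.555, Mrc1 0.448 and Csf1r 0.300. Aif1, Adgre1, Cd14, Mrc1 and Csf1r thus all had a lower r within the groups than over all 9 libraries. The drop was largest for Csf1r and Mrc1, and Lyz2 had a higher r within the groups. These values describe 9 libraries that share genotype groups and scaling, and most of the spread within groups comes from the 3 DKO libraries.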

How the data were processed

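Total RNA from adult mouse ovaries was sequenced in 9 libraries, grouped by the sample labels into WT, DKO and DKO_TG (3 each). The authors deposited 1 table of RPKM values, and no counts were used. The submitters' processing notes name cutadapt, HISAT2 2.1.0, HTSeq 0.5.4p5, DESeq2 1.2.8 and mm10; how RPKM was computed, the annotation and the use of strand are not given in these sources. The columns labelled TG-AMBb were matched to the TG-AMH-LXRb samples by group and number. Multiplying by exon length (GENCODE M21, 54723 genes matched) gave whole reads for 97.8% of values, within 0.01 read or a relative 1e-06. The library size behind the RPKM was 0.793 to 0.920 of that total in WT and 1.03 to 1.11 elsewhere, which amounts to a rescaling between groups.

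The test was limma 3.58.1 (R 4.3.3) on log2(RPKM + 0.5), in 1 fit of all 9 libraries over the 18889 genes that reached 0.5 RPKM in 3 or more libraries. Calls had a Benjamini-Hochberg adjusted p under 0.05 over all genes. Folds are on that scale and understate the change of low genes. The fit was checked on simulated data that used the same spread setting for every gene and group. That check does not cover the unequal spread between groups seen for the C1q genes. The genes and lists were chosen with earlier results of these data known. Named beyond the 10 genes are their direct partners, and up to 2 genes per list, direction and comparison with the smallest adjusted p; a gene named only to list a count was named after its values were seen. Alternatives were other pseudocounts (0.1 and 1), filters, scalings, limma-voom on recovered reads, a replicate block, 6-library fits and leaving out each library.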

Additional observations from a re-analysis of the deposited data

How the results depend on the processing

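Over 20 alternatives, 534 values of single genes among the 10 were recomputed: 413 kept their direction and side of the threshold, 96 lost and 17 gained a call, and 8 turned direction, 0 of them in DKO against WT or DKO_TG against DKO. The count of these members called in DKO against WT (7) was 5 to 9, and 5 to 8 leaving out 1 library. In DKO_TG against DKO (7) it was 4 with no filter, 0 in the 6-library fit and 0 to 8 leaving out 1 library. In DKO_TG against WT (5) it was 3 with no filter, 2 with TPM, 1 with the plain total of reads and 0 to 6 leaving out 1 library. TPM moved the median of all genes by 0.50 (DKO against WT) and 0.48 (DKO_TG against WT), and the plain total by 0.27 and 0.22.

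With the replicate number as a block, 2 of the members were called in DKO_TG against DKO, C1qb and C1qc, and 4 in DKO_TG against WT. In DKO against WT 7 were called, with Csf1r lost (adjusted p = 0.0849) and Lyz2 gained (0.0467). Over all genes it called 21 higher and 78 lower in DKO_TG against DKO, against 94 and 327 without the block. The 6-library fit called 24 and 44. Deviations of same-numbered libraries correlated at -0.309 to 0.142, and those of differently numbered libraries at -0.262 to 0.322. With 3 libraries a group, such correlations cannot settle whether a shared number marks paired samples, and the labels do not say.

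These values turned direction. In DKO_TG against WT with TPM they were Csf1r 0.049, Cd14 0.29, Mrc1 0.35, C1ra 0.043, C4b 0.0076, Il34 0.27, Tlr4 0.35, Lrp1 0.042 and Ticam1 0.28. With the plain total of reads they were Cd14 0.045, Mrc1 0.10, Il34 0.029, Tlr4 0.13 and Ticam1 0.025. With the median of ratios they were Adgre1 -0.012, C1s1 -0.033 and Ly96 -0.022, and with quantile normalization Adgre1 -0.21 and Ly96 -0.13. Leaving out 1 library, Adgre1 ranged from -0.035 (without WT replicate 2) to 0.17, C1s1 from -0.046 (without WT replicate 2) to 0.15, Tlr4 from -0.15 to 0.014 (without DKO_TG replicate 3) and Ly96 from -0.034 (without DKO_TG replicate 2) to 0.12; Ly96 was also below 0 without WT replicate 3. In DKO against WT, Serping1 was 0.45 with TPM, 0.34 with quantile normalization and 0.22 with the plain total, Cr1l 0.10 with TPM, Tlr4 -0.13 and Ly96 -0.067 with quantile normalization, and Ly96 was -0.064 (without DKO replicate 2) to 0.27 leaving out 1 library. In DKO_TG against DKO, leaving out 1 library, Nr1h3 was -0.27 to 0.014 and Ly96 -0.22 to 0.12, both highest without DKO replicate 2. The cause was not tested. Limma-voom gave no value for Cd14 and Csf1r, which lacked whole reads. With 3 libraries a group, intervals are wide.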
